A study of Mus musculus with 6 samples.

Results

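Libraries of mouse CD4+ T cells were examined for 8 genes that mark other blood cells: the B cell genes Ms4a1, Cd79a and Cd79b, the myeloid genes Itgax, Itgam, Csf1r and Lyz2, and the erythroid gene Alas2. These 8 were taken by symbol from the 13177 rows of the deposited count table, 1 row each. They were chosen from an earlier look at their CPM (counts scaled to library size) in these same 6 libraries, as genes that bear on the purity of the T cell preparation. Their values are therefore given as a description, and the fits over all rows, which include those that passed a filter, are not read as tests of them. The control group held 3 libraries of cells described as taken at zero hours, and the other group held 3 libraries of cells collected 8 h after transfer of a synthetic miR-155 oligo. The treatment field names the oligo in both groups, so what the controls received cannot be read from the labels. The cells had been purified with a CD4+ isolation kit on magnetic beads, with purity checked by flow cytometry. Every library is labelled as CD4+ T cells by its source, but the descriptions of the 8 h libraries say CD5+. For strain, age, genotype and number of animals, nothing is given in the sources used here. Time after transfer and the oligo cannot be told apart, because no 8 h library without miR-155 was compared. Nothing says that the replicates came from separate animals, so p-values measure only the spread between these libraries, which may be technical.

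The protein of Ms4a1 is CD20, a membrane protein of B cells, and Cd79a and Cd79b encode the paired signalling chains of the B cell receptor. Itgax and Itgam encode the alpha chains CD11c and CD11b, which pair with the beta chain encoded by Itgb2 on dendritic cells, macrophages and granulocytes. Csf1r encodes the receptor for the cytokines Csf1 and Il34, on which macrophages depend, and Lyz2 encodes the lysozyme of myeloid cells. Alas2 encodes the erythroid enzyme that starts haem synthesis, and Alas1 encodes the form used in other cells. A resting CD4+ T cell is not known as a source of most of these messages, which is why they are read as signs of other cells in a T cell preparation. T cells can transcribe some of them, Itgax and Itgam among them, after activation.

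The transferred oligo is an RNA that pairs through its seed with matches in 3' UTRs. The mature miR-155-5p of the mouse, from RefSeq (GRCm38.p6), lies at chr16:84714143-84714165 on the plus strand, and is shown because its seed defines the matches. Capitals mark the seed, bases 2 to 8.
mmu-miR-155-5p: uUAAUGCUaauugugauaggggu
For each marker gene, the 3' UTR of the longest GENCODE M21 transcript (GRCm38) matched to its row was searched. Other transcripts of the gene were not. The search was for GCATTA, the match to bases 2 to 7 of the miRNA. Ms4a1 held 2 such matches, 1 of which was the longer AGCATTA that pairs with the whole seed. Csf1r held 1 match, which was the longer AGCATTA and was followed by A. Lyz2 held 1 match of the shorter kind, also followed by A. Cd79a, Cd79b, Itgax, Itgam and Alas2 held none. Among 1931 3' UTRs within 25% of the length of that of Ms4a1, 26.8% held GCATTA and 10.6% held AGCATTA. For Csf1r the shares were 9.50% and 3.71% of 1885 3' UTRs of like length, and for Lyz2 they were 11.3% and 4.37% of 1968. The next lines show the AGCATTA match of Ms4a1, which was higher at 8 h, and the match of Lyz2, each with its flanks. Capitals mark the matched bases, with the A that follows in Lyz2.
Ms4a1, chr19:11251632-11251657, minus strand: tcttttctaAGCATTAttgtttagag
Lyz2, chr10:117277339-117277364, minus strand: agtacaaatgGCATTAAatcattttc
The GCATTA within the match of Ms4a1 begins at base 18 of a 3' UTR of 1990 bases. The match of Lyz2 begins at base 767 of a 3' UTR of 790 bases and lies past the end of the gene as RefSeq draws it.

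Promoters, from 250 bases before to 50 after the start site, were taken from RefSeq (GRCm38.p6) for Cd79a, Itgax, Itgam, Lyz2 and Alas2, 5 of the 8. For Ms4a1 and Cd79b no entry was matched, and the promoter of Csf1r is not reported here. The 5 promoters were searched on both strands for motifs, of which 2 are given first. The letters AGATAA are a motif of factors that drive erythroid genes, the GATA family, and the letters GAGGAA are a motif of the ETS factor PU.1, which is known for its part in myeloid and B cells. AGATAA occurs in 11.2% and GAGGAA in 28.3% of 32851 promoters. Alas2 held AGATAA at 86 bases before the start site. Itgam held GAGGAA at 3 places, at 84 and 15 bases before the start site and 32 bases after it, whereas Itgax held none. Windows around the GATA match of Alas2 and the match of Itgam at 84 bases are shown, because the table's erythroid marker and the integrin chains differed in their counts. Capitals mark the motif, which in Alas2 reads on the minus strand.
Alas2, chrX:150547319-150547348, plus strand: ctactttgctttTTATCTttagcagaggcc
Itgam, chr7:128062544-128062573, plus strand: tgttttctcccgGAGGAAggctacagaggg
Cd79a held 1 GAGGAA at 140 bases before the start site, Alas2 held 1 at 148, and Itgax held 1 AGATAA at 217. The B cell motifs CCCNNGGG, of EBF factors, and ATTTGCAT, the octamer, were in none of the 5, against 13.7% and 1.74% of all promoters.

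The libraries held 4564010 to 13675127 counts, with medians of 10 to 30 counts per row. Libraries of 1 group were hardly more alike than libraries of different groups. The mean correlation of log2 values over 8308 rows was 0.457 within groups and 0.446 between them. Among 4271 genes averaging at least 100 counts, the highest CPM within a group was typically many times the lowest, by a median factor of 14.2 for the controls and 15.1 for the 8 h group. Actb had 1 to 5 counts and Gapdh 1 to 11 in every library, so the rows may not be ordinary counts of transcripts, a limit on every value here. Of the genes that define the labelled cells, Cd4 had 5 to 10 counts everywhere, and Cd3d, Cd3e and Cd5 had between 256 and 73937. Per kilobase of transcript, Cd4 averaged 0.296 CPM, below Ms4a1, Cd79a, Cd79b, Itgax, Lyz2 and Alas2, while Cd3e averaged 205, above all 8 marker genes.

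Of the 8 markers, 5 passed the filter on low counts (Ms4a1, Cd79a, Cd79b, Itgax and Alas2). Itgam, Csf1r and Lyz2 did not. Alas2 passed through the controls only and so had to differ. Itgax, with 38, 17 and 8 counts at 8 h, also needed its controls to pass. Its lower values at 8 h are thus not free of the filter either. In the edgeR quasi-likelihood test over 8308 rows, 0% of rows were called at an adjusted p under 0.05, and so none of the 5. Unadjusted, 709 rows had p under 0.05. DESeq2, run as an alternative, called 399 of 6588 rows with an adjusted p, 6.06%, and 2 of them, Ms4a1 and Itgax, were markers. The CPM of the 2 groups did not overlap in 3 of the 5, Ms4a1 being higher and Itgax and Alas2 lower at 8 h. Over all tested rows 10.8% did not overlap, 5.72% higher and 5.08% lower at 8 h. The markers were chosen on these values, so nothing is read from that count. The same 3 did not overlap under each of 4 scalings (TMM, RLE, upper quartile and library totals).

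**Figure D1:**
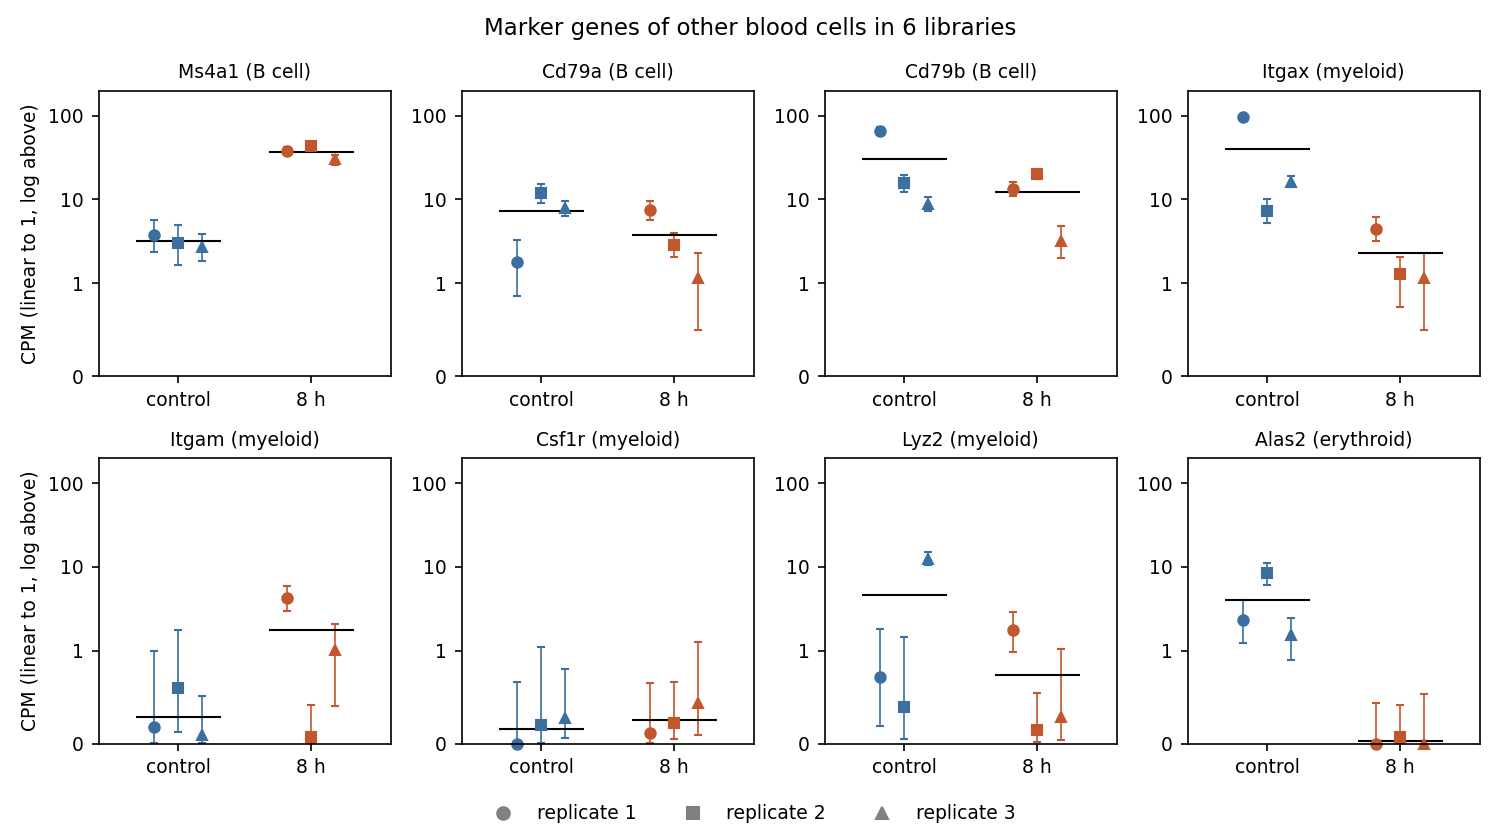
CPM of the 8 marker genes in each library (symbols give the replicate number, black lines the group means, bars the 95% counting interval), on an axis that is linear to 1 and logarithmic above. Ms4a1 lies between 2.74 and 3.75 in the control libraries and between 29.998 and 43.2 at 8 h, while Csf1r is at most 0.435 in all 6 libraries.

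Ms4a1 (NM_007641, chr19:11249679-11266149) was higher in each 8 h library than in any control. It had 21, 15 and 30 counts in control replicates 1, 2 and 3, and 324, 574 and 207 counts in 8 h replicates 1, 2 and 3. The corresponding CPM were 3.75, 2.98 and 2.74 in the control libraries and 38.0, 43.2 and 29.998 at 8 h. The groups did not overlap, and libraries within a group lay close together. Mean CPM was 3.16 ± 0.531 (SD, n = 3) in the control libraries and 37.1 ± 6.66 (SD, n = 3) at 8 h, a ratio of 11.7. The fitted log2 fold change was 3.55 with a standard error of 1.87, and it ran from 3.43 to 3.71 when each library was left out. By rank, Ms4a1 stood above 52.7% to 59.5% of all rows in the control libraries and above 84.7% to 87.1% at 8 h. Within a group its highest CPM was at most 1.44 times its lowest. With that ratio as the limit, 4 of the 4271 genes averaging at least 100 counts were as even in both groups. Ms4a1 was among them by construction. The other 3, named after their values were seen, were Itpa, Egln2 and Unc119. Itpa, which clears non-canonical nucleotides, had 979, 952 and 2557 counts in the control libraries and 66, 120 and 45 at 8 h. Egln2, a prolyl hydroxylase, had 368, 316 and 992 counts in the control libraries and 67, 148 and 54 at 8 h. Unc119, a lipid-binding trafficking protein gene, had 299, 197 and 472 counts in the control libraries and 512, 572 and 346 at 8 h, a fitted log2 fold change of 0.18. Of the 4 even genes, 3 did not overlap between groups and Unc119 did. Groups chosen as even overlap less readily, so nothing is read from that count. No 50-base stretch of the Ms4a1 transcript was shared with a transcript of another gene, but a long non-coding RNA, 4930526L06Rik, overlaps it. No source used here says whether the counting used strand.

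Cd79a (NM_007655, chr7:24897497-24901858), the alpha chain of the receptor's signalling pair, did not follow Ms4a1. It had 10, 60 and 86 counts in the control libraries and 63, 38 and 8 at 8 h. These gave 1.79, 11.9 and 7.84 CPM in the control libraries and 7.40, 2.86 and 1.16 CPM at 8 h. The groups overlapped, with a low library in each. Mean CPM was 7.19 ± 5.10 (SD, n = 3) against 3.81 ± 3.22 (SD, n = 3), and the fitted log2 fold change of -0.91 was smaller than its standard error of 1.57. Leaving out each library moved it between -1.81 and -0.37. The pseudogene Gm32220 shares 8.31% of the 50-base stretches of its transcript, so its counts may be split between the 2 in a way not given here.

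Cd79b (NM_008339, chr11:106311341-106314562), the beta chain, had 369, 78 and 97 counts in the control libraries and 114, 265 and 22 at 8 h. The CPM were 66.0, 15.5 and 8.85 in the control libraries and 13.4, 20.0 and 3.19 at 8 h. The groups overlapped, and control replicate 1 stood above the other 5 libraries. Mean CPM was 30.1 ± 31.2 (SD, n = 3) against 12.2 ± 8.45 (SD, n = 3), with a fitted log2 fold change of -1.30 and a standard error of 1.72. Without control replicate 1 that change was 0.013, so its direction rested on that library.

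The chains of the Cd79 pair, which assemble into 1 complex, did not keep a fixed ratio. Per kilobase, Cd79b stood to Cd79a as 44.99, 1.59 and 1.38 in the control libraries and as 2.21, 8.50 and 3.35 at 8 h. Control replicate 1 was apart here too, with the highest Cd79b CPM and the lowest control Cd79a CPM. Over the 6 libraries, log2(CPM + 1) of the 2 chains had a Pearson r of -0.02, given as a description over points that share their libraries and depth. Ms4a1 had an r of -0.39 with Cd79a and -0.33 with Cd79b.

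**Figure D2:**
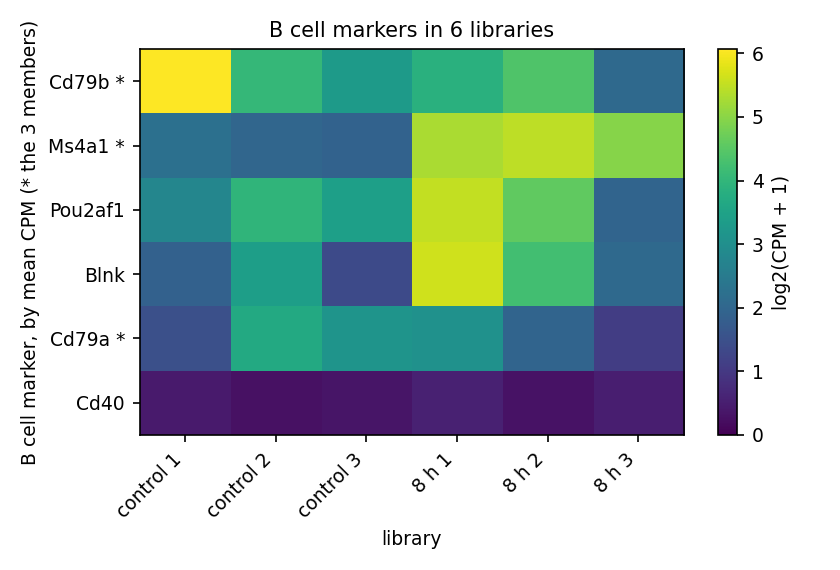
Level of the 3 B cell genes described here (starred) and of Pou2af1, Blnk and Cd40 in each library as log2(CPM + 1), from dark (0) to yellow (about 6), with genes ordered by mean CPM. Ms4a1 is bright in all 3 libraries at 8 h, whereas Cd79b is brightest in control replicate 1.

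The wider B cell list held 25 genes, of which 20 were matched and 16 tested. edgeR called 0 of them, 7 were fitted higher and 9 lower at 8 h, and the median log2 fold change was -0.45, against 0.06 over all tested rows. Ms4a1 was the only gene of the list whose groups did not overlap. The summed CPM of the list ran from 124 to 222 in the control libraries and from 86.7 to 233 at 8 h. Pou2af1, a B cell transcriptional coactivator, had 33, 74 and 107 counts in the control libraries and 381, 304 and 20 at 8 h. Blnk, the adaptor that links the receptor to its signalling enzymes, had 15, 48 and 17 counts and then 413, 236 and 22. In Pou2af1 and Blnk the third 8 h library was low, while in Ms4a1 it held 29.998 CPM. Cd40 was the only matched gene of the list at or under 10 counts in every library, and Bank1, Ighm, Ighd, Igkc and Fcmr were not matched.

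Other genes around the B cell markers gave no common direction. Of the 24 genes of B cell receptor signalling 19 were tested, 6 were fitted higher and 13 lower at 8 h, and edgeR called 0. Plcg2, the phospholipase below the receptor, was higher at 8 h without overlap (16, 24 and 43 counts against 151, 179 and 69), and Vav1, an exchange factor that T cells also use, was lower (1093, 166 and 103 against 73, 115 and 19). Plcg2 was named after its values were seen. Of the 12 matched relatives of Ms4a1 in the MS4A family, with Ms4a1 counted, 9 were tested, and Ms4a1 was the only one without overlap. Ms4a6b and Ms4a4b, which T cells are known to transcribe, held most of that family's CPM. Ms4a6b had 13656, 28533 and 25264 counts in the control libraries and 28827, 801 and 161 at 8 h. Ms4a4b had 2372, 274 and 64 counts in the control libraries and 13149, 50604 and 1469 at 8 h. The fitted log2 fold change was -1.59 for Ms4a6b and 3.52 for Ms4a4b. Among plasma cell genes 3 of 7 matched were tested, and Prdm1, a regulator of plasma cells and of activated T cells, was lower at 8 h without overlap (321, 106 and 311 counts against 89, 21 and 30). Irf4, untested and named after its values were seen, was higher without overlap (5, 1 and 14 counts against 16, 18 and 9).

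Itgax (NM_021334, chr7:128129526-128150657) was lower in every 8 h library than in any control. It had 535, 37 and 178 counts in the control libraries and 38, 17 and 8 at 8 h. The CPM were 95.6, 7.36 and 16.2 in the control libraries and 4.46, 1.28 and 1.16 at 8 h. The groups did not overlap, but the controls spread 13.0 times from lowest to highest, and control replicate 1 stood far above the rest. Mean CPM was 39.7 ± 48.6 (SD, n = 3) against 2.30 ± 1.87 (SD, n = 3), a ratio of 17.3 of control over 8 h. The fitted log2 fold change was -4.10 with a standard error of 1.92, and -2.38 without control replicate 1, when the control mean was 11.8 CPM. Itgad, a neighbouring integrin gene, shares 9.61% of the 50-base stretches of the Itgax transcript, and it has no matched row here.

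Itgam (NM_001082960, chr7:128062640-128118491) was near 0 in most libraries. It had 1, 3 and 1 counts in the control libraries and 36, 1 and 7 at 8 h. These gave 0.179, 0.596 and 0.0912 CPM in the control libraries and 4.23, 0.0753 and 1.01 CPM at 8 h. The groups overlapped, and 8 h replicate 1 held most of the counts. It was not tested, and its 8 h mean of 1.77 ± 2.18 CPM (SD, n = 3) against 0.289 ± 0.270 (SD, n = 3) rested on replicate 1, without which the 8 h mean was 0.545. A predicted gene on the same strand, Gm49368, shares 72.4% of the 50-base stretches of the Itgam transcript, so reads of the 2 cannot be told apart over most of it.

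The Itgax and Itgam chains, which share their partner, differed in their balance from library to library. Per kilobase, Itgax stood to Itgam as 619, 14.3 and 206 in the control libraries and as 1.22, 19.7 and 1.32 at 8 h. The ratios of 619, 206 and 19.7 each rest on 1 count of Itgam. Itgb2, the partner chain, had 577, 13193 and 68890 counts in the control libraries and 1137, 872 and 111 at 8 h. Its mean CPM was 3003 ± 3108 (SD, n = 3) against 71.7 ± 58.9 (SD, n = 3), and edgeR's adjusted p was 0.569. The library highest in Itgax, control replicate 1, was the lowest control in Itgb2. Itgb2 also pairs with the T cell integrin chain Itgal. Of 16 matched integrin and partner genes 11 were tested, 5 fitted higher and 6 lower, with 0 called by edgeR. Itgax and Itgae were lower without overlap, Itgae with 90, 121 and 43 counts against 5, 9 and 10. The single gene higher without overlap was Tln1, with 6, 6 and 4 counts against 16, 40 and 33. Itgae and Tln1 were named after their values were seen.

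Csf1r (NM_001037859) was at the edge of detection in all 6 libraries. It had 0, 1 and 3 counts in the control libraries and 1, 3 and 3 at 8 h. The 0 in control replicate 1 allows up to 0.536 CPM, taking 3 counts as the limit, and the other libraries lay between 0.117 and 0.435 CPM. No value passed that limit of 3 counts, so no ratio is given. Of all rows 2.75%, or 363, had at most 3 counts in every library. The ligands of the receptor were low as well, Csf1 at 0, 1 and 2 counts against 1, 4 and 1, and Il34 at 27, 3 and 0 against 1, 1 and 1. Of 12 genes of the receptor's pathway 5 were tested and edgeR called 0, and Csf1r, Csf1, Csf2ra and Runx1 were at or under 10 counts everywhere. Spi1, the gene of PU.1, had 14, 14 and 41 counts in the control libraries and 12, 10 and 46 at 8 h.

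Lyz2 (NM_017372, chr10:117277541-117282272) was seen mainly in 1 library. It had 4, 2 and 138 counts in the control libraries and 15, 2 and 2 at 8 h. The CPM were 0.715, 0.398 and 12.6 in the control libraries and 1.76, 0.151 and 0.290 at 8 h. Control replicate 3 held most of the counts, and the groups overlapped. Mean CPM was 4.57 ± 6.95 (SD, n = 3) against 0.734 ± 0.892 (SD, n = 3), and the control mean was 0.556 without replicate 3. Lyz1, its close paralog, was high in another library, with 14, 4 and 17 counts in the control libraries and 16, 520 and 0 at 8 h. The coding sequences of the pair have 447 bases each and are identical at 425 of them, 95.1%. Their longest identical run spans bases 276 to 393 of the coding sequence. The first 30 bases of that run, from GENCODE M21, are shown to make plain why a read of 50 bases from there cannot be assigned.
Lyz2 and Lyz1, coding bases 276 to 305: gaatgcctgtgggatcaattgcagtgctct
In all, 15.4% of the 50-base stretches of the Lyz2 transcript also occur in that of Lyz1, so the counts of both are uncertain. The libraries that held most of each gene differed all the same.

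The 4 myeloid genes did not move together. Control replicate 1 was high in Itgax only, control replicate 3 in Lyz2, and 8 h replicate 1 in Itgam. In the list of 32 monocyte and macrophage genes all were matched and 24 tested, 9 fitted higher and 15 lower at 8 h, with a median log2 fold change of -0.54. edgeR called 0, and none of the tested genes was without overlap. The summed CPM ran from 350 to 4352 in the control libraries and from 283 to 1302 at 8 h. Most of the top of that range was Ly6c2, a surface protein of monocytes and of some T cells, with 827, 18565 and 269 counts in the control libraries and 61, 84 and 229 at 8 h. Ctss, a lysosomal protease, had 36, 1714 and 2101 counts in the control libraries and 1167, 14583 and 423 at 8 h. Csf1r, Cebpb and Csf2ra were at or under 10 counts everywhere. Of 18 matched dendritic cell genes 10 were tested, 4 fitted higher and 6 lower, with summed CPM of 359 to 720 in the control libraries and 141 to 1064 at 8 h. Besides Itgax, H2-DMb1 was lower and Ly75 higher without overlap, both named after their values were seen. Cd74, the invariant chain of class II antigen presentation, had 47, 2169 and 4927 counts in the control libraries and 3033, 586 and 28 at 8 h. Control replicate 1, the library with the most Itgax, thus had the fewest Cd74 counts among the controls. Neutrophil genes were low, with 4 of 13 matched tested and a summed CPM of 16.6 to 58.7 in the control libraries and 23.0 to 60.1 at 8 h.

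**Figure D3:**
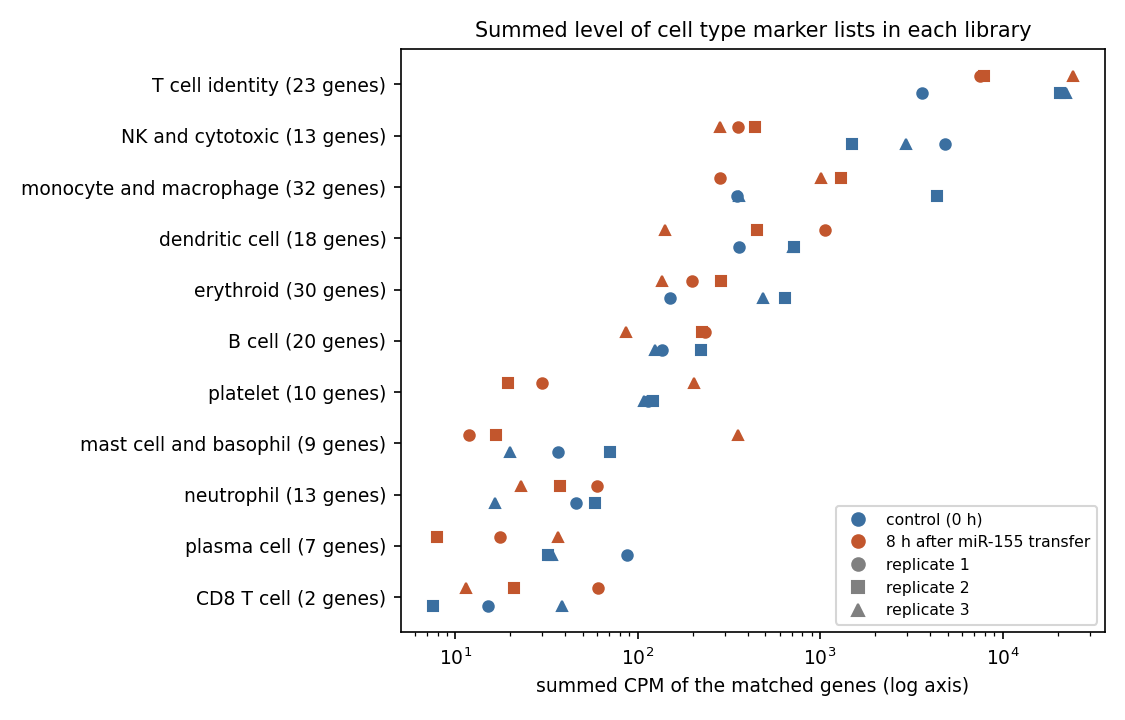
Summed CPM of the matched genes of each cell type list in each library on a log axis, with blue for control and orange for 8 h and symbols for the replicate number. The B cell, erythroid, neutrophil, dendritic and monocyte sums of the groups overlap, while the T cell list reaches 22128 in a control and 24246 at 8 h.

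Alas2 (NM_001102446, chrX:150547417-150570622) was counted in every control and was close to absent at 8 h. It had 13, 42 and 17 counts in the control libraries and 0, 1 and 0 at 8 h. The CPM were 2.32, 8.35 and 1.55 in the control libraries and 0.0753 in 8 h replicate 2. A 0 allows up to 0.352 CPM in 8 h replicate 1 and 0.435 CPM in replicate 3. The groups did not overlap, and these limits lay below every control. Pooled over libraries, the ratio of control to 8 h was 95.7, with a 95% counting interval of 16.6 to 3833 that rests on 1 count at 8 h and covers counting error only. The fitted log2 fold change was -6.45 with a standard error of 1.63, and depends on the prior count. Leaving out 8 h replicate 2 made it -7.89, and leaving out control replicate 2 made it -5.40.

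Alas2 overlaps Apex2, a DNA repair endonuclease gene on the opposite strand, which shares 13.4% of the 50-base stretches of the Alas2 transcript. Apex2 ran the other way, with 36, 8 and 64 counts in the control libraries and 169, 300 and 152 at 8 h. Its mean CPM was 4.62 ± 2.64 (SD, n = 3) against 21.5 ± 1.45 (SD, n = 3), with a log2 fold change of 2.21, a standard error of 1.77 and an edgeR adjusted p of 0.745. Without strand, reads of the shared stretch cannot be told apart. Alas1, the enzyme of other cells, was low in most libraries, with 5, 2 and 3 counts in the control libraries and 2, 21 and 2 at 8 h. It was below Alas2 in each control and above it in each 8 h library.

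Few other erythroid genes shared the pattern of Alas2. Of 33 genes 30 were matched and 19 tested, 11 fitted higher and 8 lower at 8 h, with a median log2 fold change of 0.20 and 0 called by edgeR. Alas2 was the only tested gene of the list whose groups did not overlap. Among the untested genes Tspo2 and Tal1, named after their values were seen, did not overlap either. Tspo2, a cholesterol-binding protein gene of red cell precursors, was lower at 8 h like Alas2, with 38, 25 and 11 counts in the control libraries and 3, 10 and 1 at 8 h, or 4.26 ± 2.96 against 0.417 ± 0.309 CPM (SD, n = 3). Tal1, a blood lineage factor, was higher, with 6, 0 and 0 counts against 60, 16 and 11. The summed CPM ran from 151 to 639 in the control libraries and from 136 to 285 at 8 h. Nfe2, an erythroid and megakaryocyte factor, was uneven, with 0, 1117 and 3110 counts in the control libraries and 24, 1 and 13 at 8 h. Gfi1b, a repressor of the same lineages, had 2, 1196 and 4 counts in the control libraries and 26, 1 and 3 at 8 h. Epb41, a protein of the red cell skeleton that other cells also make, had 102, 254 and 19 counts and then 259, 1620 and 28. Tfrc and Bpgm were among the genes at or under 10 counts everywhere. The matched globin genes, named after their values were seen, were low for genes that dominate red cells. Hba-a2 had 63, 221 and 606 counts in the control libraries and 11, 160 and 19 at 8 h, and Hbb-bs had 33, 53 and 559 against 35, 107 and 5. Hba-a1 had 54, 7 and 4 against 10, 26 and 1. Hbb-b2 went the other way, with 3, 6 and 1 against 38, 159 and 1. Control replicate 3 was the highest in Hba-a2 and Hbb-bs, and control replicate 1 in Hba-a1. In Hbb-b2 the highest was 8 h replicate 2, and in Alas2 it was control replicate 2. Of 14 tested genes of haem synthesis and iron, 7 were fitted higher and 7 lower. Alas2 and Uros were lower and Ppox and Slc25a38, the carrier known to bring glycine into mitochondria for haem synthesis, were higher without overlap. Slc25a38, named after its values were seen, had 13, 19 and 54 counts in the control libraries and 272, 655 and 492 at 8 h.

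**Figure D4:**
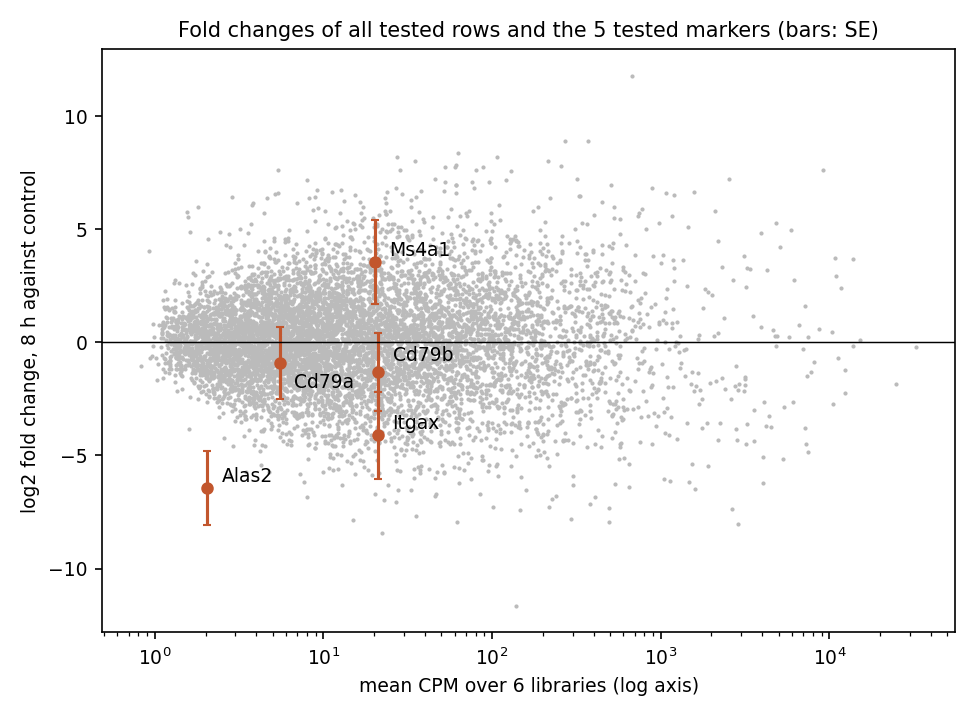
Fitted log2 fold change of 8 h against control for the 8308 tested rows (grey) by mean CPM on a log axis, with the 5 tested marker genes in orange and bars of 1 standard error. Ms4a1 lies at 3.55, Itgax at -4.10 and Alas2 at -6.45, while the bars of Cd79a and Cd79b cross 0.

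Levels can be compared between genes per kilobase of transcript. In the controls the order of mean CPM per kilobase was Cd79b (25.2), Itgax (9.82), Cd79a (4.93), Lyz2 (3.47), Alas2 (2.15), Ms4a1 (1.03), Itgam (0.0617) and Csf1r (0.0407). The ranges of neighbours in that order overlapped except for Ms4a1 and Itgam. At 8 h the order of mean CPM per kilobase was Ms4a1 (12.1), Cd79b (10.2), Cd79a (2.61), Itgax (0.568), Lyz2 (0.558), Itgam (0.378), Csf1r (0.0670) and Alas2 (0.0133). There all neighbours overlapped. Ms4a1 stood sixth in the control libraries and at the top at 8 h, and Cd79b was above Cd79a in every library of both groups. In bulk RNA, fewer cells of a type and less RNA per cell cannot be told apart, so none of these levels is a share of cells.

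Over the 6 libraries, other genes followed each tested marker more closely than the other tested markers did. That was bound to be so, because the best of 8006 genes were set against a few markers. Likeness was Pearson's r of log2(CPM + 1) over 8006 tested named genes, and with 6 points it is a description only. Nearest to Ms4a1 were Hsd17b10 (r = 0.99), Chtf18 (r = 0.99) and Nosip (r = 0.99), and 98 genes had r above 0.9. Chtf18, a loader of the replication clamp, had 11, 6 and 29 counts in the control libraries and 331, 544 and 159 at 8 h. Nearest to Cd79a were Kap, Nit2 and Acvr1b (r from 0.98 to 0.99), and to Cd79b Birc2, Gip and Sec14l1 (r from 0.98 to 0.99). Birc2, an inhibitor of apoptosis, had 5398, 362 and 260 counts in the control libraries and 368, 2218 and 33 at 8 h, so control replicate 1 was high in it as in Cd79b. Nearest to Itgax were Man1b1, Apoh and St6gal1 (r from 0.97 to 0.99), and close to Alas2 were Mest (r = 0.997) and Cenpb (r = 0.99). Mest, an imprinted gene, had 69, 694 and 118 counts in the control libraries and 3, 5 and 3 at 8 h. None of these genes was on the list of the same cell type. Those lists hold few of the 8006 genes, so nothing is read from that. Between markers the highest r was 0.72, for Cd79b and Itgax, which were both high in control replicate 1, and the lowest was -0.87, for Ms4a1 and Alas2.

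Markers of T cells and of cytotoxic cells and housekeeping genes were read beside these genes. Of 23 matched T cell identity genes 16 were tested, 10 fitted higher and 6 lower at 8 h, and none of the tested was without overlap. Their summed CPM was 3607 to 22128 in the control libraries and 7548 to 24246 at 8 h, above the summed CPM of the B cell list in every library. Single genes weighed heavily in these sums, such as Lck with 162085 counts in control replicate 3 and Ptprc with 79475 in 8 h replicate 3. Control replicate 1, highest in Itgax and Cd79b, had the lowest T cell sum. Natural killer and cytotoxic genes summed to 1495 to 4846 CPM in the control libraries and 282 to 439 CPM at 8 h, so the sum was lower at 8 h, as Itgax and Alas2 were. Of the 12 tested, 8 were fitted lower and 4 higher, and Gzma and Klrb1c were lower without overlap. Gzmb had 25368, 5292 and 266 counts in the control libraries and 1901, 4777 and 566 at 8 h. edgeR called 0 of the 12. The 12 housekeeping genes summed to 12542 to 25192 CPM in the control libraries and 148 to 3082 CPM at 8 h, also without overlap. Of their 7 tested genes 4 were fitted lower and 3 higher, edgeR called 0, and Tbp, B2m and Eef1a1 were lower without overlap. Eef1a1, a translation elongation factor, had 37566, 62414 and 131367 counts in the control libraries and 6221, 796 and 577 at 8 h. The part of the cytotoxic and housekeeping genes in the values of Itgax and Alas2 was not tested. Cd8a, of the other T cell class, had 17, 28 and 19 counts in the control libraries and 6, 62 and 72 at 8 h.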

How the data were processed

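Total RNA of 6 libraries was sequenced as single reads of TruSeq libraries, per the labels' protocols. Whole-number counts for 13177 RefSeq accessions were deposited in a single table. Per the submitters' processing notes, Bowtie, R 3.4.2 and GRCm38 were used, in roles not stated. Not given in the sources used here: the counting program, the annotation, the handling of strand and of reads with several matches, and any row filter. Symbols and coordinates came from a RefSeq gene table of GRCm38.p6 (12824 rows) or GENCODE M21 (50 rows), and 303 rows stayed unnamed.

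The 8 h group was compared with the control group in edgeR 4.0.16 (R 4.3.3): TMM scaling, filterByExpr (8308 rows kept), the default quasi-likelihood F test with robust settings, two-sided, with Benjamini-Hochberg adjustment at 0.05 over all tested rows. CPM used TMM-scaled totals. Standard errors came from dividing the size of each log2 fold change by the root of its F statistic. Counting intervals are exact Poisson intervals at 95% and cover counting error only. Molecular identifiers are not mentioned, so reads need not be separate molecules. A count of 0 allows 3 counts. Stretches of 50 bases were compared between GENCODE M21 transcripts. The script was tested on simulated counts.

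The 8 marker genes and all gene lists were chosen with earlier results of these data known. The naming rule took the 8 genes, up to 3 further genes per list by mean CPM, list genes at or under 10 counts, the reference genes Cd4, Cd3d, Cd3e, Cd5, Cd8a, Lyz1, Itgb2, Alas1, Csf1 and Il34, and the 3 genes most like each tested marker. A few genes that the rule names are not reported here. Any other gene was named after its values were seen. Alternatives were RLE, upper-quartile and total-count scaling, other row filters, DESeq2 1.42.0, the newer quasi-likelihood form, a replicate block and leaving out each library.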

Additional observations from a re-analysis of the deposited data

How the results depend on the processing

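edgeR called 0 genes with RLE, upper-quartile or total-count scaling, with no filter (13177 rows), with a mean of at least 5 CPM (6670 rows), in the newer quasi-likelihood form (984 genes at an unadjusted p under 0.05) and without each replicate (0 to 0). DESeq2 called 399 (1371 before adjustment) and gave 1720 rows no adjusted p; the cause of the difference was not tested. With the replicate number as a block edgeR again called 0, and 267 genes lay under an unadjusted 0.05. Same-numbered libraries did not deviate together (correlations of -0.011, 0.015 and -0.0039). No pairing by number was thus seen, but libraries this unlike within a group cannot settle whether the numbers pair them. Of the 64 fold changes of the 5 tested markers under alternatives, 60 kept their sign and moved by less than 1 SD between replicates. The others were Cd79b without control replicate 1, which turned to 0.013 (range -1.85 to 0.013 over libraries left out), Itgax without that library (-2.38), and Alas2 without control replicate 2 (-5.40) or 8 h replicate 2 (-7.89). Single libraries set several group means of CPM: Lyz2 in the control group went from 4.57 to 0.556 without replicate 3, Itgax there from 39.7 to 11.8 without replicate 1, and Itgam at 8 h from 1.77 to 0.545 without replicate 1. Itgam, Csf1r and Lyz2 rest on at most 36, 3 and 138 counts per library, which limits what can be read from them.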
